A study of Mus musculus with 36 samples.

Results

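Day 3 after pneumonectomy (PNX, here surgery that takes out the left lung) was examined in the remaining right lungs of 9 month (9 mo) mice against those of 3 month (3 mo) mice. The samples were chosen by their labels as the right lung arrays of day 3, which are 6 of the 36 arrays of the series, 3 for each age. All mice were female C57BL6, and all carried the same operation. Each array was hybridised with RNA pooled from 2 mice, so that the 3 pools of an age stand for 6 animals, and a pool averages over the differences between its mice. The left lung of the same mice, removed at surgery, gave a second array for every pool, and other mice gave right lungs on days 1 and 7. The 6 right lungs of day 3 lay on 1 chip, with the 3 mo pools on the first 3 positions and the 9 mo pools on the last 3, so that age and position cannot be told apart. Levels are given as log2 of the normalized probe intensity, and a difference between ages is 9 mo minus 3 mo on that scale.

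After PNX the remaining lung of a rodent grows, by proliferation of epithelial, endothelial and fibroblast-like cells and by the building of new septa and matrix, and this growth is known to weaken with age. Surgery itself also sets off an acute phase response, in which neutrophils enter the tissue and epithelium makes defence proteins such as lipocalin. The comparison addresses how the transcripts of the growing lung differed between middle-aged and young mice at a time between the early wound response and the later growth.

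The 6 pools varied more than those of the other days. The correlation of an array with the others of its age, over the transcripts tested, lay between 0.9667 and 0.9888 on day 3, against 0.9836 to 0.9934 on days 1 and 7. The median SD of a transcript over 3 pools was 0.208 log2 in 9 mo mice and 0.178 log2 in 3 mo mice on day 3, and 0.117 to 0.160 log2 in the other groups of right lungs. An SD over 0.5 log2 was found for 6.86% of transcripts in 9 mo mice and 6.08% in 3 mo mice, and for 0.937% to 3.32% in the other groups. The arrays with the lowest weights in limma, which are set from how far an array lies from its group, were 9 mo pool 3 (0.317), 9 mo pool 1 (0.340) and 3 mo pool 1 (0.370), whereas 9 mo pool 2 had a weight of 4.00. Signal at the 75th percentile, the share of probes detected and the number of beads per probe showed no such split, and the median bead error lay between 6.02% and 7.07% of the signal. On the array of 3 mo pool 1, 285 probes lay over 1 log2 below both other pools of that age, and 75.4% of these were also lowest on 9 mo pool 3, against 39.2% of all probes. For 180 genes with a second probe, the median deviation of the low probe was −1.36 and that of the other probe −0.261, and for 113 of the 180 the other probe lay within 0.5 log2. Of the 285, 5 are among the transcripts called below, which make up 1.56% of all transcripts tested.

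Levels of muscle and platelet transcripts differed between pools of the same age. The summed level of 8 skeletal muscle genes was 2698, 3828 and 21330 intensity units in 9 mo pools 1, 2 and 3 and 39010, 6471 and 22170 in 3 mo pools. Ckm, the creatine kinase of muscle, had a log2 level of 5.66, 5.90 and 10.06 in 9 mo pools and 11.73, 8.25 and 10.41 in 3 mo pools. Muscle RNA was thus low in 9 mo pools 1 and 2 and high in pool 3, and the ages overlapped. The median difference of the list was −1.75, and none of its 8 genes passed the test, although Tmod4, a muscle gene on none of the lists, was called lower (−1.04). Platelet genes were highest in 9 mo pool 1 and lowest in 9 mo pool 2, with sums of 22470, 10000 and 17750 in 9 mo pools and 13080, 14080 and 16910 in 3 mo pools. The defining transcripts of lung were detected on all 6 arrays, among them Sftpc of alveolar type II cells (15.15 to 15.63 in 9 mo and 15.45 to 15.57 in 3 mo pools), Ager of type I cells (14.66 to 15.04 and 15.00 to 15.05), Scgb1a1 of club cells (14.81 to 14.99 and 14.90 to 15.14) and Cldn5 of endothelium (13.82 to 13.98 and 13.64 to 13.77). In tissue samples of this kind, fewer cells of a type and less RNA per cell cannot be told apart.

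**Figure D1:**
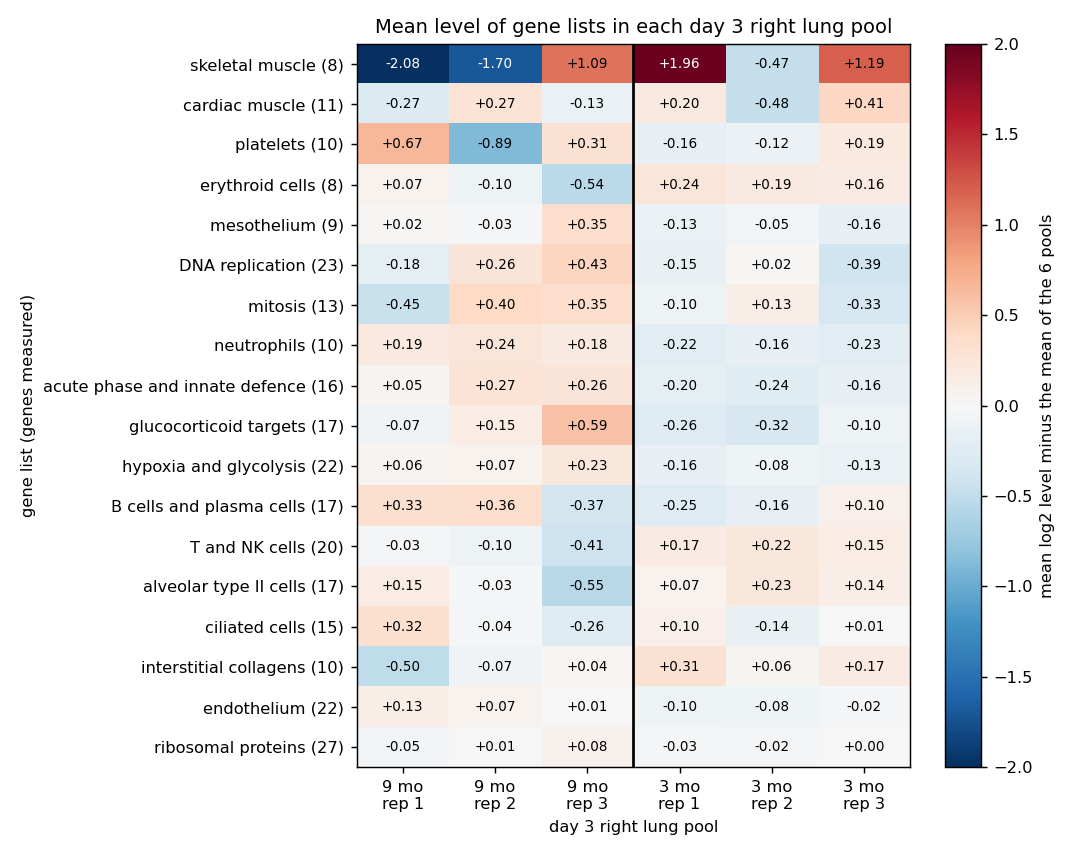
Mean log2 level of 18 gene lists in each day 3 right lung pool, minus the mean of the 6 pools (columns, 9 mo pools left of the line and 3 mo pools right of it; colour is limited to 2 in each direction, numbers in brackets are genes measured). Skeletal muscle genes vary most, within both ages, while neutrophil and acute phase lists sit above the mean in all 3 pools of 9 mo mice and below it in all 3 pools of 3 mo mice.

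Between the ages, 246 of 15795 transcripts (1.56%) were called on day 3, at an adjusted p under 0.05 from limma and a difference of at least 1.5-fold. Of these, 117 (0.741%) were higher and 129 (0.817%) were lower in 9 mo mice. Antibody transcripts, serine protease inhibitors, neutrophil and vessel genes were among the higher, and receptors of natural killer (NK) cells, epithelial genes and matrix genes among the lower. The 3 pools of an age did not overlap with those of the other for 2185 transcripts (13.8%), of which 1014 (6.42%) were higher and 1171 (7.41%) lower, and 2394 (15.2%) had an unadjusted p under 0.05. With 1 probe per gene, 194 of 11774 genes (1.65%) were called, 95 higher (0.807%) and 99 lower (0.841%), and the pools did not overlap for 763 (6.48%) and 904 (7.68%). Counts of list members below are to be read against these last shares. The p-values measure the spread between pools, not between single animals. That spread is estimated over all 18 right lung arrays together, and the pools of days 1 and 7 varied less than those of day 3. The SEs and p-values for day 3 can therefore be smaller than its own 6 pools would give.

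The number of calls depended on single pools. It was 744 without 9 mo pool 1, 116 without 9 mo pool 2, 163 without 9 mo pool 3 and 145 without 3 mo pool 3, and lay at 195 and 196 without 3 mo pools 1 and 2. With weights for the arrays it was 921. A fit without the 3 arrays of lowest weight leaves 9 mo pool 2 as the only pool of its age, with its spread assumed from the other groups. A call lost in that fit, as given for genes below, therefore cannot show that it rested on those 3 arrays. In a fit of the 6 arrays alone, which estimates the spread from these 6 pools, 21 transcripts were called, 13 higher and 8 lower, all of them among the 246. They included Igh-VJ558, Cd177, Serpina3f, Serpina3g, Abp1, Kcnh1 and Myrip, which were higher, and Cdh16, Klra4, Klra7 and Ddc, which were lower. Among the 48 genes called that are followed here, 6 were called under every alternative, namely Igh-VJ558, Cd177, Serpina3g, Abp1, Klra4 and Cdh16. The pools of 9 mo mice also differed in how far they lay from the 3 mo mean. For the 117 higher transcripts the median distance was 0.897, 1.02 and 1.10 in 9 mo pools 1, 2 and 3, and for the 129 lower ones −0.661, −0.876 and −1.10. Pool 1 was the highest of the 3 for 63.6% of the lower transcripts, against 38% of all transcripts tested.

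**Figure D2:**
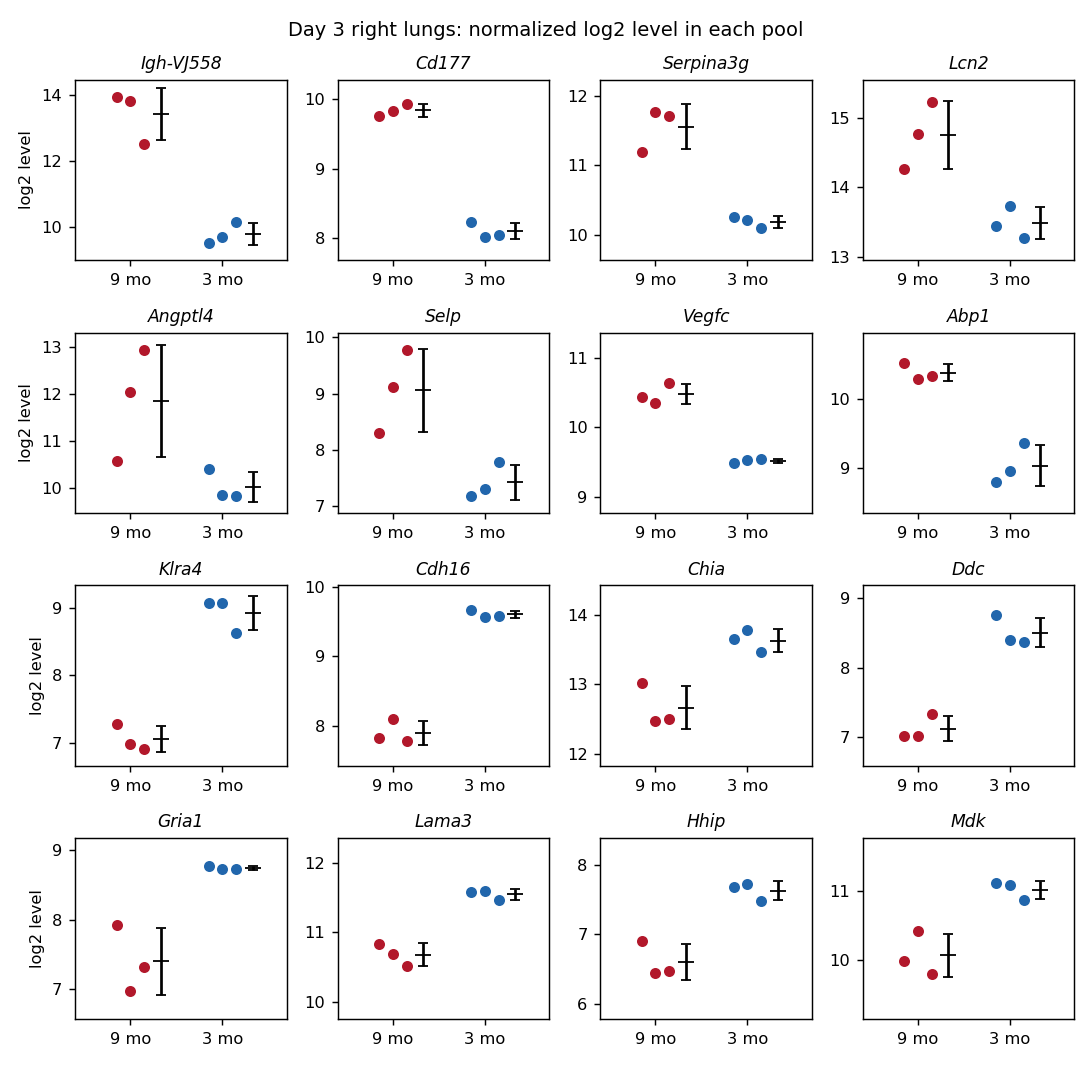
Normalized log2 level of 16 genes in each day 3 right lung pool, 9 mo pools in red and 3 mo pools in blue (points in the order of pools 1 to 3), with mean ± SD beside them. The ages do not overlap for any of the 16, but Angptl4, Selp and Gria1 vary widely among the 9 mo pools.

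Immunoglobulin transcripts were higher in 9 mo mice. Igh-VJ558, a family of variable regions of the antibody heavy chain, had a log2 level of 13.92, 13.82 and 12.50 in 9 mo pools and 9.53, 9.69 and 10.17 in 3 mo pools. This is 12.3-fold (difference 3.62, SE 0.36, adjusted p = 5.41e-05), with 9 mo pool 3 nearest to the 3 mo pools. Igh-6, which encodes the constant part of IgM heavy chains, had 14.58, 15.56 and 13.89 in 9 mo pools and 12.67, 12.36 and 13.25 in 3 mo pools (difference 1.92, SE 0.44, adjusted p = 0.0347). Igk-C, the constant part of kappa light chains, was higher by 1.42 (SE 0.29, adjusted p = 0.0182), and the kappa variable region Igk-V38 by 1.99 (SE 0.43, adjusted p = 0.0263). The lambda variable region Igl-V1 overlapped between the ages, with 13.94, 14.83 and 11.92 in 9 mo pools and 11.50, 11.62 and 12.87 in 3 mo pools (adjusted p = 0.163). Of 9 kept probes for Igh and Igk segments, 7 were called higher and 0 lower, but these segments resemble each other so closely that probes may share transcripts. Single pools ended some of these calls: Igh-6 without 9 mo pool 2 (1.48, adjusted p = 0.160) or without 3 mo pool 1 (0.0838), 2 (0.107) or 3 (0.0514), Igk-C without 9 mo pool 2 (0.0836) or without 3 mo pool 1 (0.0571) or 2 (0.0617), and Igk-V38 without 9 mo pool 3 (0.0955) or 3 mo pool 1 (0.0864). Without the 3 arrays of lowest weight, Igk-C (adjusted p = 0.115) and Igk-V38 (difference 0.61, adjusted p = 0.534) were not called either. With all pools, Igh-6 was not called with an intensity trend and robust spread (0.0750), the replicate number as a block (0.0627) or no detection filter (0.0748), and Igk-V38 not with array weights (difference 1.05, 0.0701) or no detection filter (0.0553).

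No surface molecule of B cells on the list was called higher. Faim3, which binds IgM at the surface of B cells, was lower in 9 mo mice, at 10.33, 10.10 and 9.69, against 11.25, 11.30 and 11.27 in 3 mo mice (difference −1.23, SE 0.23, adjusted p = 0.0088). It was not called without the 3 arrays of lowest weight (−1.18, adjusted p = 0.102). Of 17 genes of B cells and plasma cells, 3 were called higher, all of them antibody genes, and 1 lower, and the pools did not overlap for 4 and 8 of them. The 8 lower ones include Cd79b of the B cell receptor (difference −0.86, adjusted p = 0.0910 on its brighter probe), the kinase Blk (−0.93, 0.0936) and the chemokine receptor Cxcr5 (−0.73, 0.0951), which did not pass the test. The dimmer probe of Cd79b was called lower (−1.24, adjusted p = 0.0489). Without 9 mo pool 3 the median of the list was −0.0434, against −0.24 with all pools. In the left lungs of the same pools these 3 genes differed by −0.19 to 0.12.

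Acute phase and innate defence genes had 3 of 16 members called higher in 9 mo mice and 0 lower. Lcn2, a lipocalin that withholds iron from bacteria, had 14.26, 14.77 and 15.23 in 9 mo pools and 13.45, 13.73 and 13.27 in 3 mo pools. It was 2.41-fold higher (difference 1.27, SE 0.19, adjusted p = 0.00214). Serpina3g, an intracellular serine protease inhibitor of the mouse Serpina3 cluster, had 11.19, 11.77 and 11.71 in 9 mo pools and 10.26, 10.21 and 10.09 in 3 mo pools (difference 1.37, SE 0.14, adjusted p = 5.41e-05). Both genes separated the ages without overlap. The neighbouring inhibitor Serpina3f was higher by 1.63 (SE 0.29, adjusted p = 0.00724; 0.0588 without the 3 arrays of lowest weight), and of 3 kept Serpina3 probes 2 were called. The copies of this cluster are near-identical in parts, so that their probes may not be independent. Lrg1, a plasma glycoprotein of the acute phase, was higher by 0.87 (SE 0.17, adjusted p = 0.0120), and was not called without 9 mo pool 2 (0.0516), 9 mo pool 3 (0.0608) or the 3 arrays of lowest weight (0.0917). Over the list the pools did not overlap for 7 of 16 genes, all higher, with a median difference of 0.26, against 0.00 over all genes. Among these are Cp, the copper carrier ceruloplasmin (0.56, adjusted p = 0.0237, below the 1.5-fold limit), and Socs3, the feedback inhibitor of STAT signalling (0.82, adjusted p = 0.083). The 3 probes for Cp differed by −0.19 to 0.56.

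Acute phase genes are induced through STAT proteins, whose half-site pair TTCNNNGAA (the same on both strands) was searched in the 250 bases before each start in the RefSeq promoters of GRCm38.p6. It is shown for Serpina3g, the member with the smallest adjusted p, with the match in capitals, at chr12:104235897-104236146 on the plus strand.
Serpina3g: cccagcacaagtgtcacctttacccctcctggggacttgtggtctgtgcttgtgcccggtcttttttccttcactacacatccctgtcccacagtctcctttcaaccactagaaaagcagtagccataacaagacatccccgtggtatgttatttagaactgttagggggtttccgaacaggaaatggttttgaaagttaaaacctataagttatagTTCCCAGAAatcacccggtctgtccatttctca
The letters occur in 7.02% of 32851 promoters, and in 3 of the 11 promoters matched for the list, those of Serpina3g, Socs3 and Itih4. Lcn2 and Lrg1 had no match in this window.

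Of 10 neutrophil genes, 1, Lcn2, was called, and it was higher. Cd177, a surface protein of neutrophils that is on no list here, had little spread within either age. Its level was 9.76, 9.83 and 9.94 in 9 mo pools and 8.23, 8.02 and 8.05 in 3 mo pools, 3.34-fold higher (difference 1.74, SE 0.15, adjusted p = 1.58e-05). Csf3r, the receptor of the growth factor of granulocytes, had 9.52, 9.51 and 9.32 in 9 mo pools and 9.08, 8.78 and 8.59 in 3 mo pools (0.63, adjusted p = 0.130), and S100a9, a calcium-binding protein of neutrophils, 13.39, 13.28 and 13.00 against 12.71, 12.70 and 12.61 (0.55, adjusted p = 0.189). For 5 of the 10 genes the pools did not overlap, and the median difference was 0.42. The summed level of the list was 61600 to 74750 intensity units in 9 mo pools and 38850 to 47240 in 3 mo pools, without overlap. This sum includes Lcn2, which epithelium makes as well, at log2 levels of 14.26 to 15.23 in 9 mo and 13.27 to 13.73 in 3 mo pools. So bright a gene weighs heavily in a sum, and the sum without Lcn2 was not computed. In left lungs the median of the list was 1.03 and on day 1 it was −0.40.

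Genes that respond to low oxygen, fasting and glucocorticoids included large but uneven differences. Angptl4, a secreted inhibitor of lipoprotein lipase, had 10.56, 12.03 and 12.93 in 9 mo pools and 10.39, 9.84 and 9.83 in 3 mo pools. Its difference of 1.82 (SE 0.40, adjusted p = 0.0277) came mainly from 9 mo pools 2 and 3, while pool 1 exceeded the highest 3 mo pool by little. It was not called without 9 mo pool 2 (adjusted p = 0.105) or 3 (1.28, 0.0988), or without 3 mo pool 2 (0.0757) or 3 (0.0966). With all pools it was not called with an intensity trend and robust spread (0.0556) or without a detection filter (0.0570). Ankrd37, an ankyrin repeat protein known as a target of hypoxia-inducible factor, had 9.21, 10.16 and 10.07 in 9 mo pools and 8.60, 7.99 and 8.04 in 3 mo pools (1.6, SE 0.29, adjusted p = 0.00829). Without 9 mo pool 2 its difference was 1.43 (adjusted p = 0.0518). Of 22 genes of hypoxia and glycolysis it was the only one called, with 5 not overlapping, all higher, and a median of 0.15. P4ha2, a collagen prolyl hydroxylase, stood at 0.53 (adjusted p = 0.0294, below 1.5-fold), and Ddit4, an inhibitor of mTOR signalling, at 0.75 (adjusted p = 0.0699). Of 17 glucocorticoid targets 2 were called, Lcn2 and Angptl4, with 7 not overlapping and higher and 1 not overlapping and lower. Fkbp5, a co-chaperone of the glucocorticoid receptor, had 8.86, 9.56 and 10.64 in 9 mo pools and 8.57, 8.50 and 8.52 in 3 mo pools (1.16, adjusted p = 0.103), and the metallothionein Mt1 14.66, 15.02 and 15.61 against 14.60, 14.23 and 14.33 (0.71, adjusted p = 0.0668). In Angptl4, Fkbp5 and Mt1 alike, pool 3 was the highest and pool 1 the lowest of the 9 mo pools. Of 28 heat shock and unfolded protein genes, Hsp90aa1, a cytosolic chaperone, was called (0.77, SE 0.18, adjusted p = 0.0333), though on 1 of its 2 probes, and not without 9 mo pool 2 (0.131) or 3 (0.0661), 3 mo pool 1 (0.114) or 2 (0.0764), or the 3 arrays of lowest weight (0.172).

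Hypoxia-inducible factor binds the cores ACGTG and GCGTG, searched on both strands. The promoter of Ankrd37, the called member of that list, is shown with both cores in capitals, at chr8:45999851-46000100 on the minus strand of GRCm38.p6. Where the run of capitals is longer, the cores of both strands overlap.
Ankrd37: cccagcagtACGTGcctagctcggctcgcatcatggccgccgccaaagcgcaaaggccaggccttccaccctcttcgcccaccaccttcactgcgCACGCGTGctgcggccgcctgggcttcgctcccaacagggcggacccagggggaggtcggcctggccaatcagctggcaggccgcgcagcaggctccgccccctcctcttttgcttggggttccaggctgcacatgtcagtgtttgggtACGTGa
ACGTG occurs in 16.6% and GCGTG in 28.2% of all promoters, and 38.6% hold at least 1 of them. Of 14 promoters matched for the list of hypoxia and glycolysis, 9 hold the first and 10 the second.

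Vessel genes were called in both directions. Selp, the P-selectin that captures leukocytes on activated endothelium and is also stored in platelets, had 8.29, 9.11 and 9.78 in 9 mo pools and 7.18, 7.29 and 7.77 in 3 mo pools. It was 3.13-fold higher (difference 1.65, SE 0.28, adjusted p = 0.00601). The sums of platelet genes are given above, and their part in this difference was not tested. Vegfc, a growth factor of lymphatic vessels, was even within ages, with 10.44, 10.35 and 10.64 in 9 mo pools and 9.48, 9.52 and 9.54 in 3 mo pools (0.96, SE 0.15, adjusted p = 0.00339; 0.82 and 0.0959 without the 3 arrays of lowest weight). Nos3, the nitric oxide synthase of endothelium, was higher by 1.11 (SE 0.26, adjusted p = 0.0348) on 3 of its 3 probes. It was not called without 9 mo pool 2 (0.0850) or 3 (0.79, 0.138), 3 mo pool 1 (0.0950), 2 (0.0794) or 3 (0.0763), or the 3 arrays of lowest weight (0.158). Vwf, the von Willebrand factor of endothelium and platelets, had 13.86, 13.92 and 13.48 in 9 mo pools and 13.24, 13.04 and 13.14 in 3 mo pools (0.61, SE 0.12, adjusted p = 0.0115). It lay close to the 1.5-fold limit, and was not called without 9 mo pool 1 (0.56, 0.0208), 9 mo pool 2 (0.53, 0.0685) or 3 mo pool 2 (0.56, 0.0501). In the opposite direction, Ednrb, an endothelin receptor of lung capillaries, had 11.96, 11.58 and 11.75 in 9 mo pools and 12.72, 12.46 and 12.85 in 3 mo pools (−0.91, SE 0.16, adjusted p = 0.00822), on both of its probes. Without 9 mo pool 2 its adjusted p was 0.0508, and without the 3 arrays of lowest weight 0.0517. Of 22 endothelial genes these 3, Nos3, Vwf and Ednrb, were called, and the median of the list was 0.09. The pools did not overlap for 6 of the 22, which were higher, and for 1, which was lower. The transcription factor Sox17 (0.56, adjusted p = 0.0838) and the receptor Tie1 (0.56, adjusted p = 0.104) are among the 6. Gucy1b3, a subunit of the nitric oxide receptor guanylate cyclase in smooth muscle, was lower (−0.77, SE 0.18, adjusted p = 0.0406), but not without 9 mo pool 2 (0.141) or 3 (0.166), 3 mo pool 2 (0.125) or 3 (0.103), or the 3 arrays of lowest weight (0.0506).

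Abp1, the diamine oxidase that degrades histamine and polyamines, was higher in 9 mo mice under every alternative tried. It had 10.51, 10.28 and 10.33 in 9 mo pools and 8.80, 8.96 and 9.36 in 3 mo pools, a 2.52-fold difference (1.34, SE 0.16, adjusted p = 5.48e-04). Spp1, osteopontin, a secreted protein of macrophages and wounds, had 12.19, 12.99 and 13.09 in 9 mo pools and 11.32, 11.64 and 11.42 in 3 mo pools (1.3, SE 0.22, adjusted p = 0.00600). B3gnt3, a glycosyltransferase of mucin-type glycans, was higher by 1.23 (SE 0.14, adjusted p = 2.89e-04), and Rc3h2, a protein that destabilises mRNAs, by 0.96 (SE 0.18, adjusted p = 0.0101; 0.0637 without 9 mo pool 2).

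**Figure D3:**
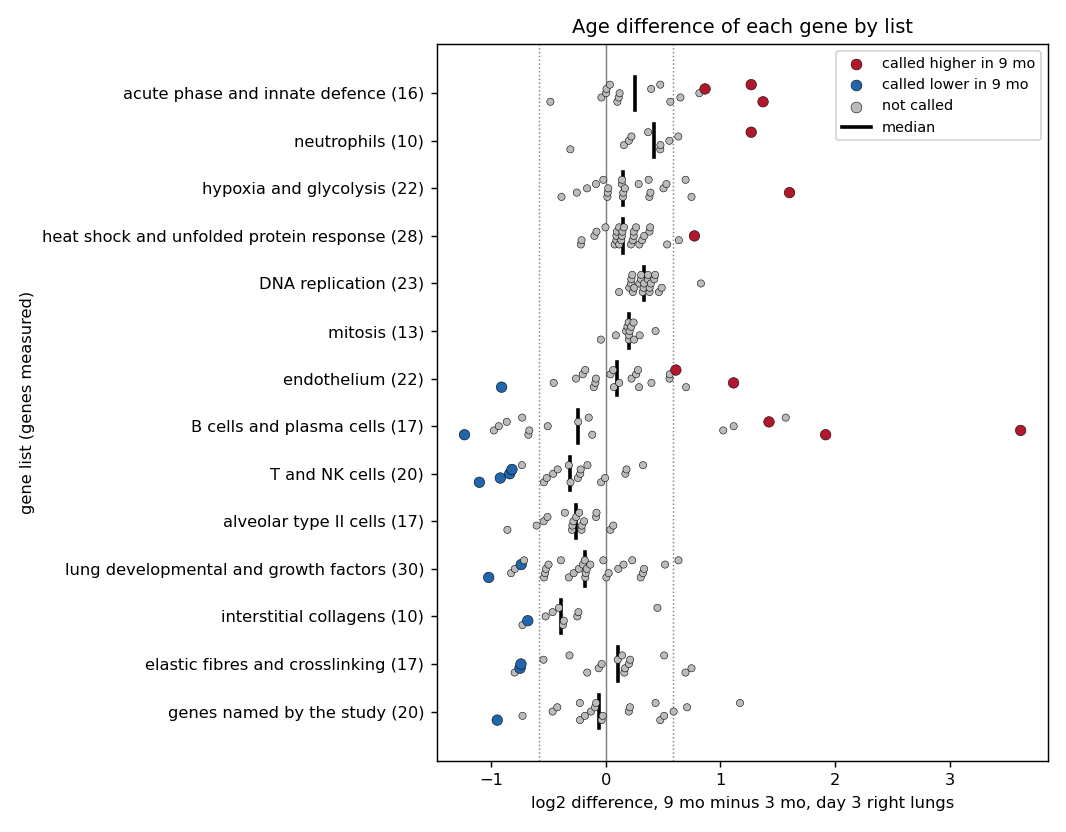
Log2 difference (9 mo minus 3 mo, day 3 right lungs) of every measured gene in 14 lists, 1 point per gene, with the median as a black bar and the 1.5-fold limit as dotted lines. Genes called higher are red and genes called lower are blue. All 23 DNA replication genes lie to the right of 0 and none is called, and antibody genes lie apart from the rest of the B cell list.

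Some transcripts of NK and T cells were lower in 9 mo mice. Klra4, a lectin-like receptor of NK cells, had 7.28, 6.98 and 6.91 in 9 mo pools and 9.07, 9.07 and 8.63 in 3 mo pools, 3.65-fold lower (difference −1.87, SE 0.22, adjusted p = 3.00e-04). Klra7 of the same family was lower by 1.66 (SE 0.29, adjusted p = 0.00651; 0.0766 without the 3 arrays of lowest weight), and the third member measured, Klra3, stood at −0.61 (adjusted p = 0.138). Sequences of this family are alike enough for probes to be shared, and their values are uncertain in that respect. Of 20 genes of T and NK cells, 4 were called lower and 0 higher. They are Nkg7 of cytotoxic granules (−1.10, adjusted p = 0.0452), Ccl5, a chemokine of effector lymphocytes (−0.92, 0.0493), Klrd1, an NK receptor chain (−0.84, 0.0470), and Cd2, an adhesion molecule (−0.82, 0.0290). The pools did not overlap for 8 of the 20, all lower, and the median was −0.31. The summed level of the list was 10840, 10970 and 8189 intensity units in 9 mo pools and 13090, 14770 and 12240 in 3 mo pools, lowest in 9 mo pool 3. These 4 calls rested on every pool or nearly so: adjusted p-values over the fits that lack a single pool and lost the call reached 0.119 for Cd2, 0.165 for Nkg7, 0.176 for Klrd1 and 0.191 for Ccl5, each without 9 mo pool 3. The calls of Cd2, Nkg7 and Klrd1 were lost without any of the other pools but 9 mo pool 1, and that of Ccl5 without any of them but 9 mo pool 1 and 3 mo pool 3. All 4 were lost without the 3 arrays of lowest weight (adjusted p-values of 0.105 for Cd2, 0.180 for Nkg7, 0.207 for Klrd1 and 0.375 for Ccl5) and without a detection filter. With the replicate number as a block Nkg7 (0.0661), Klrd1 (0.0766) and Ccl5 (0.0761) were not called, and with array weights Ccl5 was not (−0.61, 0.0560). In left lungs the median of the list was 0.08. Of 18 genes of monocytes and tissue macrophages, Fcrls, an Fc receptor-like protein of macrophages, was called lower (−0.79, adjusted p = 0.0391), and lost the call in each fit that left out a pool other than 9 mo pool 1, with adjusted p-values up to 0.156 (without 9 mo pool 3).

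Cdh16, Chia, Tff2 and Lama3, known from epithelium, were lower in 9 mo mice, while no gene was called on the lists of alveolar and airway epithelial cells. Cdh16, a cadherin known from kidney epithelium, had 7.83, 8.09 and 7.78 in 9 mo pools and 9.66, 9.57 and 9.57 in 3 mo pools, 3.26-fold lower (difference −1.70, SE 0.13, adjusted p = 9.14e-06). The SD over 3 pools was 0.17 and 0.05 in 9 mo and 3 mo mice. Chia, the acidic chitinase that lung epithelium secretes, had 13.02, 12.47 and 12.50 in 9 mo pools and 13.65, 13.78 and 13.46 in 3 mo pools (−0.97, SE 0.16, adjusted p = 0.00514), on 2 of its 2 probes. Tff2, a trefoil peptide of mucous epithelium, was lower by 1.23 (SE 0.19, adjusted p = 0.00332), with 11.15, 10.50 and 10.53 in 9 mo pools and 11.89, 12.18 and 11.78 in 3 mo pools. Lama3, the laminin chain by which epithelium adheres to its basement membrane, had 10.84, 10.69 and 10.51 in 9 mo pools and 11.58, 11.60 and 11.46 in 3 mo pools (−0.87, SE 0.10, adjusted p = 4.52e-04). It was the one gene called of 18 of the basement membrane list. The pools of the ages did not overlap for any of these 4 genes. Markers of alveolar type II cells were not called in either direction (0 of 17), although 15 of 17 lay below 0, with a median of −0.26. Their summed level was 288100, 264500 and 211600 intensity units in 9 mo pools and 290300, 298900 and 288000 in 3 mo pools, lowest in 9 mo pool 3, and without that pool the median was −0.0531. Lyz1, the lysozyme of type II cells, stood at −0.86 (adjusted p = 0.113). None was called of 12 type I, 13 club and 15 ciliated cell genes. The keratins Krt19 (0.73, adjusted p = 0.148) and Krt8 (0.54, adjusted p = 0.168), which epithelium and mesothelium share, did not overlap between the ages and did not pass the test, and Lcn2, given above, was higher.

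Further genes called lower were not members of the lists given so far. Ddc, the decarboxylase that makes dopamine and serotonin and marks neuroendocrine cells of the airway, had 7.02, 7.02 and 7.34 in 9 mo pools and 8.76, 8.4 and 8.37 in 3 mo pools (−1.38, SE 0.22, adjusted p = 0.00416), on 2 of its 2 probes. Without the 3 arrays of lowest weight its adjusted p was 0.0621. Gria1, a subunit of the AMPA glutamate receptor, had 7.92, 6.97 and 7.31 in 9 mo pools and 8.78, 8.73 and 8.72 in 3 mo pools (−1.34, SE 0.20, adjusted p = 0.00203), with the spread almost wholly among the 9 mo pools and 1 of its 2 probes called. All 3 kept probes of the protocadherin alpha cluster, adhesion proteins best known from neurons, were called lower, Pcdha6 by 1.26 (SE 0.25, adjusted p = 0.0163). These transcripts share their constant exons, and the call of Pcdha6 was lost without 9 mo pool 2 (0.0501), 9 mo pool 3 (−0.91, 0.0555) or 3 mo pool 3 (0.0809). Dgat2, the last enzyme of triglyceride synthesis, was lower by 1.23 (SE 0.27, adjusted p = 0.0268), but not called without 9 mo pool 2 (0.124) or 3 (0.0716), 3 mo pool 1 (0.0915) or 3 (0.0935), or the 3 arrays of lowest weight (0.0959). Slc7a10, a transporter of small neutral amino acids, was lower by 1.22 (SE 0.28, adjusted p = 0.0325), but not without 9 mo pool 2 (0.140) or 3 (0.142), or 3 mo pool 1 (0.0864) or 3 (0.124).

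Among factors that guide lung growth, 2 of 30 were called, both lower. Hhip, which binds and restrains hedgehog ligands, had 6.91, 6.44 and 6.47 in 9 mo pools and 7.68, 7.73 and 7.47 in 3 mo pools (−1.02, SE 0.18, adjusted p = 0.00639). Fgf18, a fibroblast growth factor of alveolar development, had 6.97, 7.03 and 6.79 in 9 mo pools and 7.66, 7.74 and 7.60 in 3 mo pools (−0.74, SE 0.13, adjusted p = 0.00815). Both are dim probes. With the authors' deposited log2 values Hhip differed by −0.52 and Fgf18 by −0.40, which is below the 1.5-fold limit, and without the 3 arrays of lowest weight the adjusted p of Fgf18 was 0.137. For 9 of the 30 genes the pools did not overlap and were lower, and for 2 higher. The 9 include Fgf10 (−0.50, adjusted p = 0.0754) and its receptor Fgfr2 (−0.54, 0.0813), which drive branching and epithelial growth, and Igfbp3, a binding protein of insulin-like growth factors (−0.83, 0.0541). Igfbp2, another such binding protein, stood at 0.63 (adjusted p = 0.0547).

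Several matrix genes were lower in 9 mo mice. Mfap4 and Mfap5, proteins of the microfibrils around elastic fibres, were called, 2 of 17 genes of elastic fibres and crosslinking. The median of that list was 0.10, with 9 of 17 genes above 0, and that of 15 matrix proteases and inhibitors, none of them called, was 0.20, with 11 above 0. Mfap4 had 13.60, 13.16 and 13.02 in 9 mo pools and 14.14, 14.05 and 13.84 in 3 mo pools (−0.75, SE 0.14, adjusted p = 0.0104), and Mfap5 9.95, 10.34 and 10.11 against 10.84, 10.77 and 11.02 (−0.74, SE 0.15, adjusted p = 0.0172). Lum, a proteoglycan that spaces collagen fibrils, was lower by 0.99 (SE 0.18, adjusted p = 0.00859), and Thbs3, a thrombospondin, by 1.21 (SE 0.19, adjusted p = 0.00338) on 3 of its 3 probes. Of 12 genes of matricellular and wound matrix, Lum was the 1 called lower and Spp1, given above, the 1 called higher. The median of these 12 was −0.05, with 5 above 0. Of 10 interstitial collagens 1 was called lower, Col14a1, a collagen on the surface of fibrils (−0.68, SE 0.13, adjusted p = 0.0102) on 1 of its 2 probes. It fell short of 1.5-fold with array weights (−0.52) and in the deposited log2 table (−0.54). The pools did not overlap for 6 of the 10, which were lower, and for 1, which was higher, and the median was −0.39. Col3a1 had 10.13, 10.94 and 10.88 in 9 mo pools and 11.79, 10.97 and 11.36 in 3 mo pools (−0.73, adjusted p = 0.125), Col1a1 12.13, 12.50 and 12.84 against 13.08, 12.86 and 12.92 (−0.46, adjusted p = 0.184), and Col6a1 stood at −0.37 (adjusted p = 0.117). In left lungs the median of the collagens was −0.50, and Col3a1 (−1.35, adjusted p = 0.0048) and Col1a1 (−1.36, 0.0016) were called lower there. Thbs3 (−0.66, 0.0031) and Mfap5 (−0.73, 0.027) were also called lower in left lungs, while Mfap4 (−0.42), Lum (−0.61) and Col14a1 (−0.43) did not pass. On day 3 the elastic fibre protein Fbln1 did not pass on its brightest probe (−0.79, adjusted p = 0.0525) but was called lower on its 2 others (−0.80 and −1.20). The gelatinase Mmp2 (−0.61, adjusted p = 0.0743) did not pass, and neither did Timp1, an inhibitor of matrix proteases, which had 12.19, 13.11 and 13.85 in 9 mo pools and 12.09, 11.85 and 12.04 in 3 mo pools (1.06, adjusted p = 0.0639). Igsf10 was lower by 1.20 (SE 0.23, adjusted p = 0.0130) on 1 probe and stood at −0.11 on its other. Pools mattered for several: Mfap4 was not called without 9 mo pool 2 (0.0583) or 3 (0.0542), Mfap5 without 9 mo pool 3 (0.0559) or 3 mo pool 3 (0.0826), Col14a1 without 9 mo pool 3 (0.0517) and Igsf10 without 3 mo pool 3 (0.0568). Without the 3 arrays of lowest weight the adjusted p was 0.0510 for Thbs3, 0.0684 for Lum, 0.116 for Igsf10, 0.201 for Col14a1 and 0.240 for Mfap5.

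No cell cycle gene was called in either direction. All 23 genes of DNA replication lay above 0, with a median of 0.33, but the pools did not overlap for only 4 of them. Cdc45l, a part of the replicative helicase, had 7.99, 8.49 and 8.84 in 9 mo pools and 7.80, 7.92 and 7.12 in 3 mo pools (0.83, adjusted p = 0.126). The summed level of the list was 23720, 30970 and 34440 intensity units in 9 mo pools and 23670, 25660 and 20710 in 3 mo pools. It was thus high in 9 mo pools 2 and 3, while pool 1 lay within the range of the 3 mo pools. Of 13 mitosis genes 0 were called and 12 lay above 0, with a median of 0.20, and the pools overlapped for all 13. Members of such lists vary together from pool to pool, and their number is no number of independent measurements. Without 9 mo pool 1 the medians of the 2 lists were 0.513 and 0.471, without 9 mo pool 3 that of replication was 0.184, and without 3 mo pool 3 that of mitosis was 0.0525. In left lungs the medians of the replication and mitosis lists were −0.11 and −0.13, and on day 1 they were −0.34 and −0.76.

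Of 20 genes that the study names for fibroblasts, matrix and growth, 1 was called on day 3. The study chose part of these genes on the same samples, and those are no independent evidence of direction. It names others, such as Mdk, from PCR of cultured lung fibroblasts. Its array results after PNX compare right lungs with left lungs of the same pools, while levels are compared here. Mdk, the growth factor midkine, had 9.99, 10.42 and 9.81 in 9 mo pools and 11.11, 11.08 and 10.87 in 3 mo pools (−0.95, SE 0.16, adjusted p = 0.00632), on 2 of its 2 probes. It was also called lower in left lungs of the same pools before PNX (−0.61, adjusted p = 0.0044). The same was found in right lungs on day 1 (−0.70, adjusted p = 0.0255). Without the 3 arrays of lowest weight the day 3 difference of Mdk was −0.55. Tnc, tenascin C of wound matrix, had 10.08, 11.51 and 12.57 in 9 mo pools and 9.91, 10.73 and 10.01 in 3 mo pools (1.17, adjusted p = 0.216), and Lox, which crosslinks collagen, 10.59, 11.56 and 12.11 against 10.56, 10.90 and 11.27 (0.51, adjusted p = 0.434). Tnfrsf12a, a receptor of injury responses, had 10.43, 10.98 and 12.55 in 9 mo pools and 10.47, 10.95 and 10.76 in 3 mo pools (0.59, adjusted p = 0.505). Each of these 3 genes was highest in 9 mo pool 3 and overlapped between the ages, and without that pool the difference of Tnfrsf12a was −0.02. In left lungs Lox was called lower in 9 mo mice (−0.92, adjusted p = 0.0035), while Tnc (−0.22) and Tnfrsf12a (0.18) did not pass. Birc5, which is needed for cell division, had 10.17, 10.79 and 10.74 in 9 mo pools and 10.11, 10.41 and 9.88 in 3 mo pools (0.43, adjusted p = 0.288). Cdkn1a, a cell cycle inhibitor, stood at 0.71 (adjusted p = 0.148) without overlap, and the other 12 genes, leaving out Col3a1 and Col1a1 given above, lay between −0.42 and 0.475.

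The transcripts with the largest spread within an age were mostly muscle genes, led by Atp2a1, the calcium pump of muscle, with 6.37, 7.15 and 12.18 in 9 mo pools and 12.84, 9.72 and 11.95 in 3 mo pools. Rptn, an epidermal protein, followed the same pools, with 6.51, 6.08 and 11.32 in 9 mo pools and 12.90, 10.63 and 12.56 in 3 mo pools (−4.06, adjusted p = 0.0597), and its ages overlapped. Mylpf, Myl3, Myl1 and Tnni2 of the contractile apparatus and the oxygen store Mb also had 9 mo pools 1 and 2 below 9 mo pool 3. Gsn, an actin-severing protein, had 10.06, 8.50 and 7.75 in 9 mo pools and 8.89, 10.84 and 10.66 in 3 mo pools, and its probes differed by −1.36 to −0.20.

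The same pools gave left lungs before PNX, where 228 transcripts (1.44%) were called between the ages, 145 higher and 83 lower in 9 mo mice. Of the 117 transcripts higher on day 3, 36 (30.8%, or 24.8% of the 145) were also called higher in left lungs, and of the 129 lower, 18 (14.0%, or 21.7% of the 83). None was called in the opposite direction. Igh-VJ558, Igh-6, Igk-C, Cd177 and Serpina3g belonged to the shared calls. Igh-VJ558 had 14.00, 14.38 and 13.61 in 9 mo and 10.69, 10.62 and 10.57 in 3 mo left lungs (3.37), and Cd177 9.21, 8.93 and 9.28 against 7.57, 7.30 and 7.35 (1.73). Ddc was lower there by 1.20 (adjusted p = 4.2e-04) and Cdh16 by 0.72 (adjusted p = 0.0070). The call of Angptl4, in contrast, had no counterpart, with 10.83, 10.46 and 10.47 in 9 mo and 10.79, 10.18 and 10.98 in 3 mo left lungs (−0.07). Lcn2 (0.28), Ankrd37 (0.13), Vegfc (0.09) and Faim3 (−0.17) did not pass there either, and whether right and left lungs differed in their age difference was not tested for these genes. S100a9 had a larger difference in left lungs (1.66, adjusted p = 0.0016) than on day 3 (0.55).

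**Figure D4:**
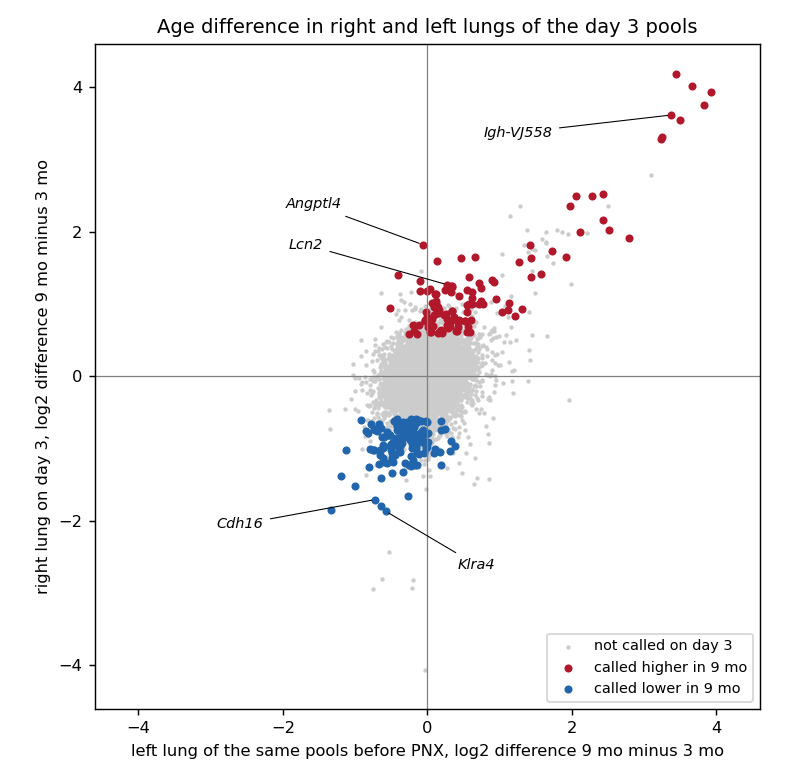
Log2 difference between the ages (9 mo minus 3 mo) of 15795 transcripts in right lungs on day 3 (vertical axis) and in left lungs of the same pools before PNX (horizontal axis). Transcripts called higher on day 3 are red and called lower blue. Antibody transcripts at the upper right differ in both lungs, while Angptl4, at 1.82 against −0.07, was called on day 3 and not in left lungs.

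Right lungs of days 1 and 7 came from other mice, on other chips. The ages differed by 480 transcripts (3.04%) on day 1 and by 28 (0.177%) on day 7. Of the 117 higher on day 3, 51 (43.6%, or 19.1% of the 267, or 1.69% of all, called on day 1) were also called higher on day 1 and 14 (12.0%, or 58.3% of the 24, or 0.152% of all) on day 7. Of the 129 lower, 47 (36.4%, or 22.1% of the 213, or 1.35% of all) were also called on day 1 and 2 (1.55%, or 50% of the 4, which are 0.0253% of all) on day 7. In all, 13 transcripts were called in the same direction in day 3 right and left lungs and in right lungs of both other days. Of the 246 called on day 3, 132 were called in day 3 right lungs alone of these 4 comparisons, which does not show that they differed only there. By direction and comparison, 82.9% to 91.5% of the day 3 calls had the same sign in left lungs or on days 1 and 7, against 47.3% to 52.7% of all transcripts tested. Serpina3g was higher on every occasion, by 1.12 on day 1 and by 0.92 on day 7, and Klra4 lower by 1.11 and by 1.16.

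Whether an age difference was particular to day 3 was tested by the difference on day 3 minus the mean of those on days 1 and 7, and 2 transcripts (0.0127%) passed, Cdh16 and Chia. Eef1d, a translation elongation factor, had a contrast of 1.00 at an adjusted p of 0.0286, but its day 3 difference of 0.55 stayed below the fold limit, and 1388 had an unadjusted p under 0.05. Cdh16 averaged 7.98 ± 0.23 in 9 mo and 8.42 ± 0.19 in 3 mo mice on day 1, 7.90 ± 0.17 and 9.60 ± 0.05 on day 3, and 9.90 ± 0.11 and 10.03 ± 0.12 on day 7 (SD, 3 pools each). Low levels were thus found in both ages on day 1, in 9 mo mice alone on day 3 and in neither on day 7, each day with other mice on another chip. In left lungs of the day 3 pools, before PNX, Cdh16 was already lower in 9 mo mice. It averaged 8.94 there against 9.66 in 3 mo mice (−0.72, adjusted p = 0.0070). The day 3 difference of Cdh16 in right lungs minus the mean of days 1 and 7 was −1.42 (SE 0.16, adjusted p = 0.0023). Chia averaged 13.26 ± 0.10 in 9 mo and 12.67 ± 0.24 in 3 mo mice on day 1, 12.66 ± 0.31 and 13.63 ± 0.16 on day 3, and 13.68 ± 0.12 and 13.42 ± 0.21 on day 7. It was lower in 9 mo mice on day 3, and the values for the other days, 0.58 and 0.26, did not pass the test (the day 3 difference minus their mean was −1.39, SE 0.20, adjusted p = 0.0171). Cdh16 passed in every fit that lacked a single pool, with adjusted p-values up to 0.0157, and not without the 3 arrays of lowest weight (0.078). Chia did not pass without 9 mo pool 2 (0.0546) or 3 (0.107), without 3 mo pool 1 (0.0526) or 2 (0.0883), or with the replicate number as a block (0.0599). Nor did Chia pass with detection on at least 3 arrays (0.0541) or without a detection filter (0.0586). Gria1 (−1.27, adjusted p = 0.11), Lama3 (−0.65, 0.12), Lcn2 (1.05, 0.15), B3gnt3 (0.79, 0.15) and Rc3h2 (1.02, 0.15) were called on day 3 and did not pass. Peg3, an imprinted gene, differed by 0.23 on day 3, by −1.31 on day 1 and by −0.98 on day 7 (adjusted p = 0.055 for the contrast). For the genes called on day 3 that are named above, other than Cdh16 and Chia, no difference between days was shown.

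**Figure D5:**
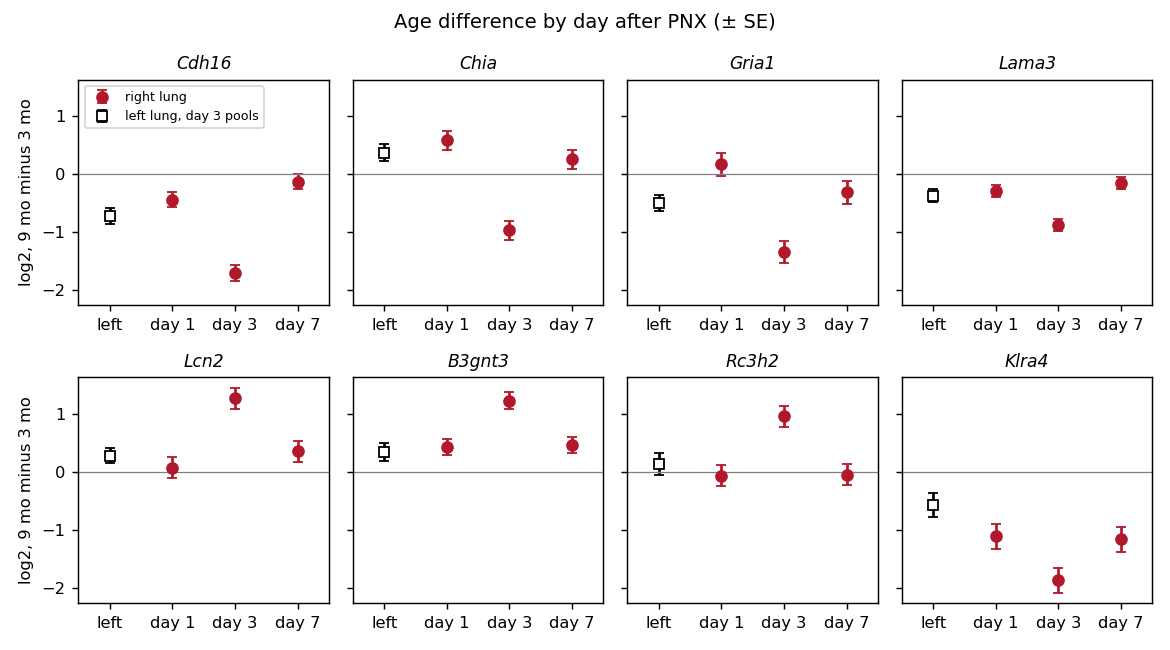
Log2 difference between the ages (9 mo minus 3 mo, ± SE from limma) of 8 genes in left lungs of the day 3 pools (open squares) and in right lungs on days 1, 3 and 7 (filled circles). Cdh16 and Chia lie furthest from their other days on day 3, at −1.70 and −0.97, and Klra4 lies below 0 on every day.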

How the data were processed

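RNA of lung pools was measured on 36 Illumina MouseWG-6 v2 arrays, with 45281 probes for 30789 gene symbols. What the authors deposited per probe is a mean bead intensity, a detection p-value, and the number and error of its beads. These intensities were deposited as not normalized and not background corrected, although 25% to 31.2% of them on each array lie below 0. A table of log2 values was deposited too, which the authors had corrected for background and quantile normalized. The submitters' processing notes name RMA, lumi and limma. Results of the authors' own tests were not used.

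Here the intensities were corrected with limma's normexp model (offset 16, background taken from the detection p-values) and quantile normalized, and log2 was taken. Probes detected at p under 0.05 on every array numbered 15795, for 11774 genes. A gene is represented by its probe with the highest mean over right lungs, unless other probes are mentioned. Symbols are those of the deposited annotation, and 21918 of them matched RefSeq genes of GRCm38.p6.

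The 18 right lung arrays were fitted in limma in 6 groups of age and day, with 12 residual degrees of freedom, and the 18 left lung arrays likewise. All p-values in the text are from limma, two-sided, with Benjamini-Hochberg adjustment over the probes tested. These were the 15795 probes except under the other detection filters. There 14301 probes (p under 0.01 on all arrays), 26368 (at least 3 arrays) or 45281 (no filter) were tested, and adjusted p-values change with that number. Calls required 1.5-fold or more at an adjusted p under 0.05. Precision is limited by having 3 arrays per group. The fit was tested on simulated data.

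Named genes are the 12 per direction with the largest difference among those called without overlap of the pools, up to 4 per list with the smallest p, those the study names, the 12 with the largest spread within an age and 6 per direction for the difference between days. Clone and predicted names, which make up 36 of the higher and 20 of the lower calls, were skipped. Genes outside this rule, such as Tmod4, Klra3, Kcnh1, Myrip, Cd79b, Blk, Cxcr5 and Eef1d, were chosen after their values were seen. Members and all 47 gene lists were chosen with earlier results of these data known, so that no list is independent evidence.

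The alternatives were fits with no background correction, with an offset of 50, with scaling to the 75th percentile or with the deposited log2 table, detection at p under 0.01, on 3 or more arrays or not required, no fold limit, only the 6 arrays compared, array weights, an intensity trend with robust spread, the replicate number as a block, and fits that lacked a pool or the 3 arrays of lowest weight. Tools were R 4.3.3 and limma 3.58.1.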

Additional observations from a re-analysis of the deposited data

Results flagged for a closer look

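The age differences of Cdh16 and Chia on day 3 differed from the mean of those on days 1 and 7. The age difference of Cdh16 on day 3, minus the mean of its age differences on days 1 and 7, was −1.42 on the log2 scale (limma, adjusted p = 0.0023). Cdh16 was also called lower in 9 mo left lungs of the day 3 pools, before PNX (−0.72, adjusted p = 0.0070). For Chia the contrast was −1.39 (adjusted p = 0.0171, and up to 0.107 in fits that lacked a pool, that value without 9 mo pool 3). Its age difference was −0.97 on day 3, and 0.58 on day 1 and 0.26 on day 7, which did not pass. The contrast of Chia thus joins differences of opposite sign, and does not test whether the ages lay further apart on day 3. In both genes the pools of the ages did not overlap on day 3, with 3 of 3 pools of 9 mo mice below all 3 pools of 3 mo mice. The right lungs of each day came from other mice and lay on another chip, so that day and chip cannot be told apart. The contrast compares age differences within a chip.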

How the results depend on the processing

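For day 3 right lungs, 246 transcripts were called. The count was 21 in a fit of the 6 arrays alone, 921 with array weights, and 116 to 744 when a single pool was left out (744 without 9 mo pool 1 and 116 without 9 mo pool 2, with 163 without 9 mo pool 3 and 145 without 3 mo pool 3). Under the other alternatives it lay within 1.5 times, at 203 with the deposited log2 values and 301 with detection on at least 3 arrays. Without the 3 arrays of lowest weight it was 217, of which 96 were among the 246, and 9 mo mice are then a single pool, which is assumed to vary like the other groups. No transcript called took the opposite sign under any of these. The share of higher calls was 47.6%, and 61.9% in the fit of 6 arrays.

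For the day 3 difference against days 1 and 7, 2 transcripts were called, 1 with detection on at least 3 arrays, 1 without a detection filter, 179 with array weights, 6 without the 3 arrays, and 1 to 62 without a single pool (62 without 9 mo pool 1). This contrast could not be fitted on the 6 arrays alone. For left lungs, 228 were called, 137 with the deposited log2 values, 356 without a fold limit, and 133 to 193 without a single pool (133 without 9 mo pool 1, 138 without 3 mo pool 2). Of the 94 genes followed, Tnfrsf12a, not called, changed sign, at −0.0231 without 9 mo pool 3, within a range of −0.0231 to 1.035 over fits that lacked a pool. Where a cause is not named, it was not tested.

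Deviations of same-numbered pools of the 2 ages had correlations of −0.370, −0.112 and −0.189 in day 3 right lungs, so the numbers do not pair the samples. With the replicate block the counts were 210 for day 3, 1 for the difference from other days and 214 for left lungs. Dim probes limit what can be read: with the deposited log2 values, Hhip differed by −0.52, Fgf18 by −0.40 and Col14a1 by −0.54, and all 3 fell short of 1.5-fold.

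Of the 48 called genes followed, 39 lost the call in the fit of 6 arrays, 25 without the 3 arrays, and 1 to 20 without a single pool. With all pools, 13 lost it without a detection filter (Igk-V38, Igh-6, Angptl4, Dgat2, Slc7a10, Nos3, Cd2, Nkg7, Klrd1, Ccl5, Hsp90aa1, Gucy1b3 and Fcrls), and 7 of these (Nos3, Nkg7, Klrd1, Ccl5, Hsp90aa1, Gucy1b3 and Fcrls) also with detection on at least 3 arrays. It was lost with the replicate block by 5 (Igh-6, Nkg7, Klrd1, Ccl5 and Gucy1b3), with array weights by 4 (Igk-V38, Col14a1, Ccl5 and Fcrls), with an intensity trend and robust spread by 2 (Igh-6 and Angptl4), with 75th percentile scaling by Fcrls and with no background correction by Fgf18.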
